A study of Mus musculus with 14 samples.

Results

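The 48 genes described here encode developmental transcription factors outside the HOX clusters. They were taken by name from the Pax, Sox, LIM homeobox, sine oculis, forkhead, neurogenin, Olig, Nkx, Dlx and related families. All 48 matched protein-coding genes of the RefSeq annotation of GRCm38, out of 21887 on the assembled chromosomes. Peaks of BMI1 and of H2AK119ub were assigned to them by position, at close range (inside a gene or up to 5 kb from either end) and at up to 100 kb from either end.

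The peaks came from chromatin immunoprecipitation and sequencing (ChIP-seq) of heart cells of C57BL/6 mice aged 6 to 8 weeks that carry the surface antigen Sca1 and lack the leukocyte antigen CD45. Damage mice had received 20 mg/kg of the redox-cycling herbicide paraquat once by intraperitoneal injection, and Homeostasis mice PBS, and the cells were sorted magnetically; culture at 3% oxygen is described, without saying whether it preceded ChIP. The 4 groups (Homeostasis BMI1, Homeostasis H2AK119ub, Damage BMI1 and Damage H2AK119ub) had 3 libraries each, with 1 peak list per library. Homeostasis lists held 2000 to 13487 peaks and Damage lists 19 to 68. The deposited lists hold no read counts, so depth per library is unknown. No expression was measured, so the labelled cell type could not be checked against its markers here. Nothing in the labels says that replicates were separate mice, so the p-values below rest on a spread between libraries that may be technical only.

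BMI1 belongs to Polycomb repressive complex 1. Complexes of this family place a single ubiquitin on histone H2A, the mark H2AK119ub, and hold genes of other lineages silent. In embryonic stem cells and many other cell types, transcription factor genes of this kind, with start sites in CpG-rich DNA, are well-known Polycomb targets. They are master regulators of neural, sensory, endodermal or muscle fates and are mostly not genes of heart stroma.

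Start sites and upstream sequence came from a RefSeq promoter table of GRCm38.p6, which held 42 of the 48 genes. Of the 6 genes with a peak within 5 kb, described below, 4 were in it. The 250 bases before their start sites are shown on the strand of the gene, 5′ to 3′, with each CG dinucleotide in capitals, because CpG-rich DNA is the sequence feature these genes share.
Zic1 (chr9:91365769-91366018, minus strand): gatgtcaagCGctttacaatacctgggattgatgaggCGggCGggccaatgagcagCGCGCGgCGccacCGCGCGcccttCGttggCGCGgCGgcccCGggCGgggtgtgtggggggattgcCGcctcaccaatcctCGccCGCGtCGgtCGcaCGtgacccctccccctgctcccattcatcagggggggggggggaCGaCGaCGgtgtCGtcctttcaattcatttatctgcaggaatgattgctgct
Pax7 (chr4:139832969-139833218, minus strand): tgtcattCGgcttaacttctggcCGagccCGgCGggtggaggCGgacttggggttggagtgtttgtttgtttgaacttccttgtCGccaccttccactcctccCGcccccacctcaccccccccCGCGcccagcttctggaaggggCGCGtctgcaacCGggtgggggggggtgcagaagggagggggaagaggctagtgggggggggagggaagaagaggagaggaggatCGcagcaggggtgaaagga
Pou3f3 (chr1:42695518-42695767, plus strand): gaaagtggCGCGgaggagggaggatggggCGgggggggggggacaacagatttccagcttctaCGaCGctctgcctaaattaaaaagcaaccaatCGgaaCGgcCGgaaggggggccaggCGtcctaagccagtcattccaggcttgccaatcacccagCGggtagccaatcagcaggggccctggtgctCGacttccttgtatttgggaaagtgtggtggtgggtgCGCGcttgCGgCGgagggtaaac
Pax5 (chr4:44710695-44710944, minus strand): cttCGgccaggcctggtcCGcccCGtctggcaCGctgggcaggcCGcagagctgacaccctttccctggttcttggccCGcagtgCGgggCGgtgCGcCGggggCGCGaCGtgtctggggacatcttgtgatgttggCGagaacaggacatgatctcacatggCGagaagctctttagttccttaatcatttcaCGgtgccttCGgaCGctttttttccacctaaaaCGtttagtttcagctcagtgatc
These stretches held 27 CG in Zic1, 13 in Pax7, 15 in Pou3f3 and 19 in Pax5. Over the table's windows of 300 bases (250 before the start site and 50 after), the 42 genes had a median of 23 CG per window, against 13 over 17492 protein-coding genes. A window with 10 or more CG was present in 41 of the 42 (97.6%), against 58.0% of all. Lhx9, a LIM homeobox gene of gonad and limb, was the exception with 6. The motif searched was CG, which reads the same on both strands, and 94.9% of all windows held at least 1.

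No Homeostasis peak lay in the promoter window of any of these 42 genes, nor within 1 kb of it. The share over all genes of the table was small too, with 0.0972% having a peak in the window and 1.24% within 1 kb of it, so a count of 0 among 42 genes does not separate them from other genes. Among them, the site closest to a start site was 2.06 kb upstream of Zic1. En2 and Olig1 are not in the promoter table, so their close sites are not covered by these counts. That of En2 lay 0.857 kb from the lower end of the gene. Of 76 pairs of a gene and a site within 100 kb with a known start site, 3 lay within 5 kb of the start and 39 lay upstream.

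The first question was how many of these genes were occupied at close range. Within 5 kb, Homeostasis lists had a peak at 6 of the 48 genes (Pax5, Pax7, En2, Olig1, Pou3f3 and Zic1) and Damage lists at none. Homeostasis BMI1 lists reached 4, 4 and 2 genes in replicates 1, 2 and 3, and Homeostasis H2AK119ub lists 1, 6 and 4. The ranges of the antibodies overlap, and the shortest list, H2AK119ub replicate 1, had the lowest count. Counting a gene when 2 or more of 3 libraries had a peak, BMI1 marked 4 of 48 genes (8.33%) against 7.34% of all protein-coding genes, and H2AK119ub also 4 of 48 against 9.63%. Over all 6 Homeostasis lists, 6 of 48 genes (12.5%) had a peak within 5 kb, against 19.3% of all. Against all genes, these counts are close to or below the background. Without BMI1 replicate 1 or 2 the BMI1 count was 0 or 1, against 5.665% and 4.67% of all genes. Without H2AK119ub replicate 2 or 3 that of H2AK119ub was 1, against 3.00% and 3.02% of all, so the share of all genes fell as well. Peaks in 2 or more Damage libraries were rare everywhere, at 0.0137% of all genes for BMI1 and 0.00914% for H2AK119ub.

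The genes are short, with a median length of 6.40 kb against 17.2 kb. Among the 39 genes of up to 20 kb, BMI1 marked 3 (7.69%) and H2AK119ub 2 (5.13%) within 5 kb, above the 2.80% and 3.63% of the 11849 protein-coding genes of that length. With 3 and 2 genes, and no test, this is a description only. Most of the 48 genes, 42 of them, had no peak within 5 kb in any of the 12 lists.

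**Figure D1:**
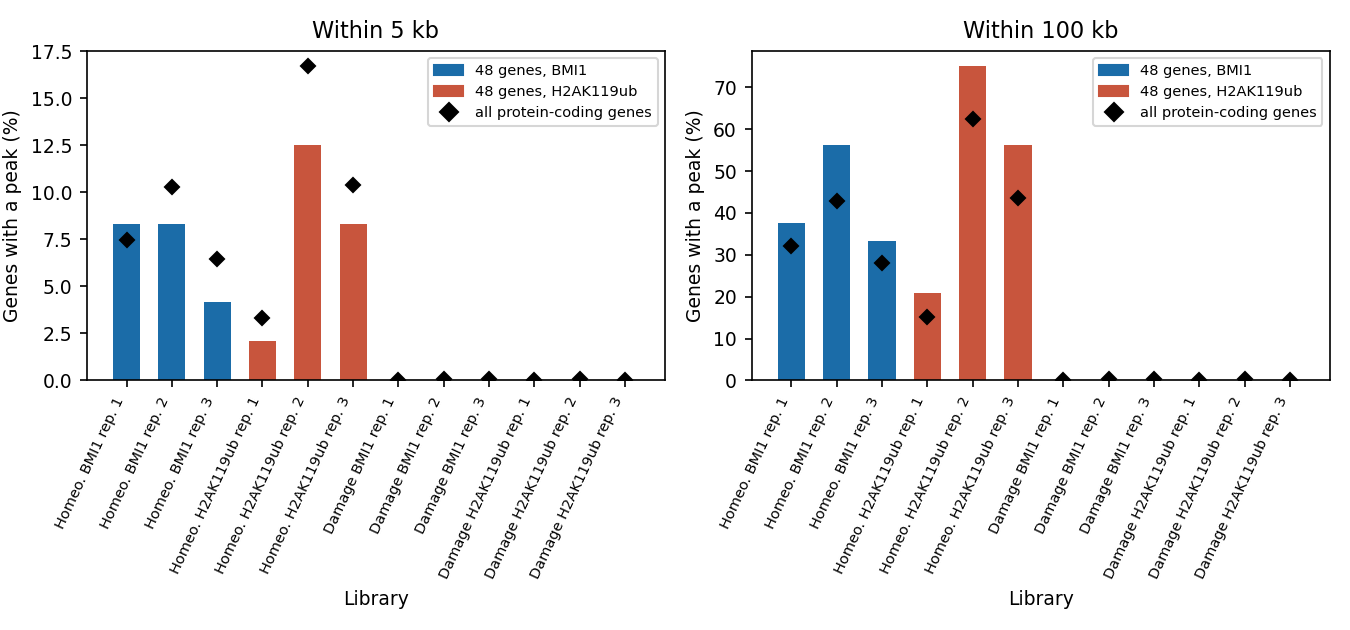
Percent of genes with a peak within 5 kb (left) and within 100 kb (right) in each library. Bars are the 48 genes (blue BMI1, red H2AK119ub) and diamonds all 21887 protein-coding genes. Within 100 kb every Homeostasis bar lies above its diamond, within 5 kb only that of BMI1 replicate 1 does, and all Damage bars are 0.

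The 6 genes with a peak at close range each had their own arrangement. En2 (chromosome 5, 28165696 to 28172190), an engrailed homeobox gene of midbrain and cerebellum, had a site 0.857 kb from its lower end (28164702 to 28164839). That site was found in BMI1 replicates 1 and 2 and H2AK119ub replicates 2 and 3. With a further peak 2.69 kb away in H2AK119ub replicate 2, En2 had 1, 1 and 0 BMI1 peaks within 5 kb and 0, 2 and 1 H2AK119ub peaks.

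Olig1 (chromosome 16, 91269769 to 91271939), a basic helix-loop-helix gene of the oligodendrocyte lineage, had a site 4.50 kb from its lower end (91265166 to 91265274). The site lies between Olig2 and Olig1 and was found in 5 of 6 lists, all but BMI1 replicate 3. It was the sole site within 5 kb of any of the genes that was found in H2AK119ub replicate 1.

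Pax7 (chromosome 4, 139737059 to 139833530), the paired box gene of muscle satellite cells, had a site 4.28 kb upstream of its start site (139837181 to 139837305) in BMI1 replicates 1 and 2 and H2AK119ub replicates 2 and 3. Pax5 (chromosome 4, 44524748 to 44710694), the commitment factor of B cells, was the only one of the 48 with a site inside its own gene body. That site (44682997 to 44683121) lay 27.6 kb downstream of the start and was found in BMI1 replicate 2 and H2AK119ub replicates 2 and 3, and another peak lay 3.31 kb past the lower end in H2AK119ub replicate 2.

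Zic1 (chromosome 9, 91358058 to 91365768), a zinc finger gene of the dorsal neural tube, had a pair of adjoining sites inside its neighbour Zic4, 2.06 and 2.25 kb upstream of the Zic1 start (91367779 to 91368080). BMI1 replicates 1 and 3 and H2AK119ub replicate 2 had a peak there. Pou3f3 (chromosome 1, 42695768 to 42700210), a POU factor of forebrain and kidney, had a site 2.37 kb past its end (42702576 to 42702679), inside the noncoding gene 2900092D14Rik, in BMI1 replicate 3 and H2AK119ub replicate 2. No single library of Homeostasis BMI1 held peaks at all 6 genes, while H2AK119ub replicate 2, the longest list, did.

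At a distance of up to 100 kb the genes had neighbouring peaks more often. Homeostasis BMI1 lists had a peak within 100 kb of 18, 27 and 16 of the 48 genes in replicates 1, 2 and 3, and Homeostasis H2AK119ub lists of 10, 36 and 27. The means were 20.3 ± 5.86 genes for BMI1 and 24.3 ± 13.2 for H2AK119ub (SD, n = 3 each). Longer lists had the higher counts, and the antibodies overlap. All 6 shares, 20.8% to 75.0%, lay above those of all protein-coding genes in the same lists, 15.1% to 62.5%. A peak in 2 or more of 3 libraries was present at 19 of 48 genes for BMI1 (39.6%, against 32.7% of all) and at 28 of 48 for H2AK119ub (58.3%, against 42%). Without H2AK119ub replicate 2 or replicate 3 the latter count fell to 9 and 10 genes, against 14.1% and 14.3% of all. For both antibodies 17 genes were counted, for BMI1 alone Lhx9 and Pou3f3, and for H2AK119ub alone 11, among them Foxa1, Foxa2, Foxd3, Six2, Six6 and Nkx2-2. This split was not counted over all genes, where H2AK119ub also marked more genes than BMI1, so nothing particular to these genes is read from it.

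**Figure D2:**
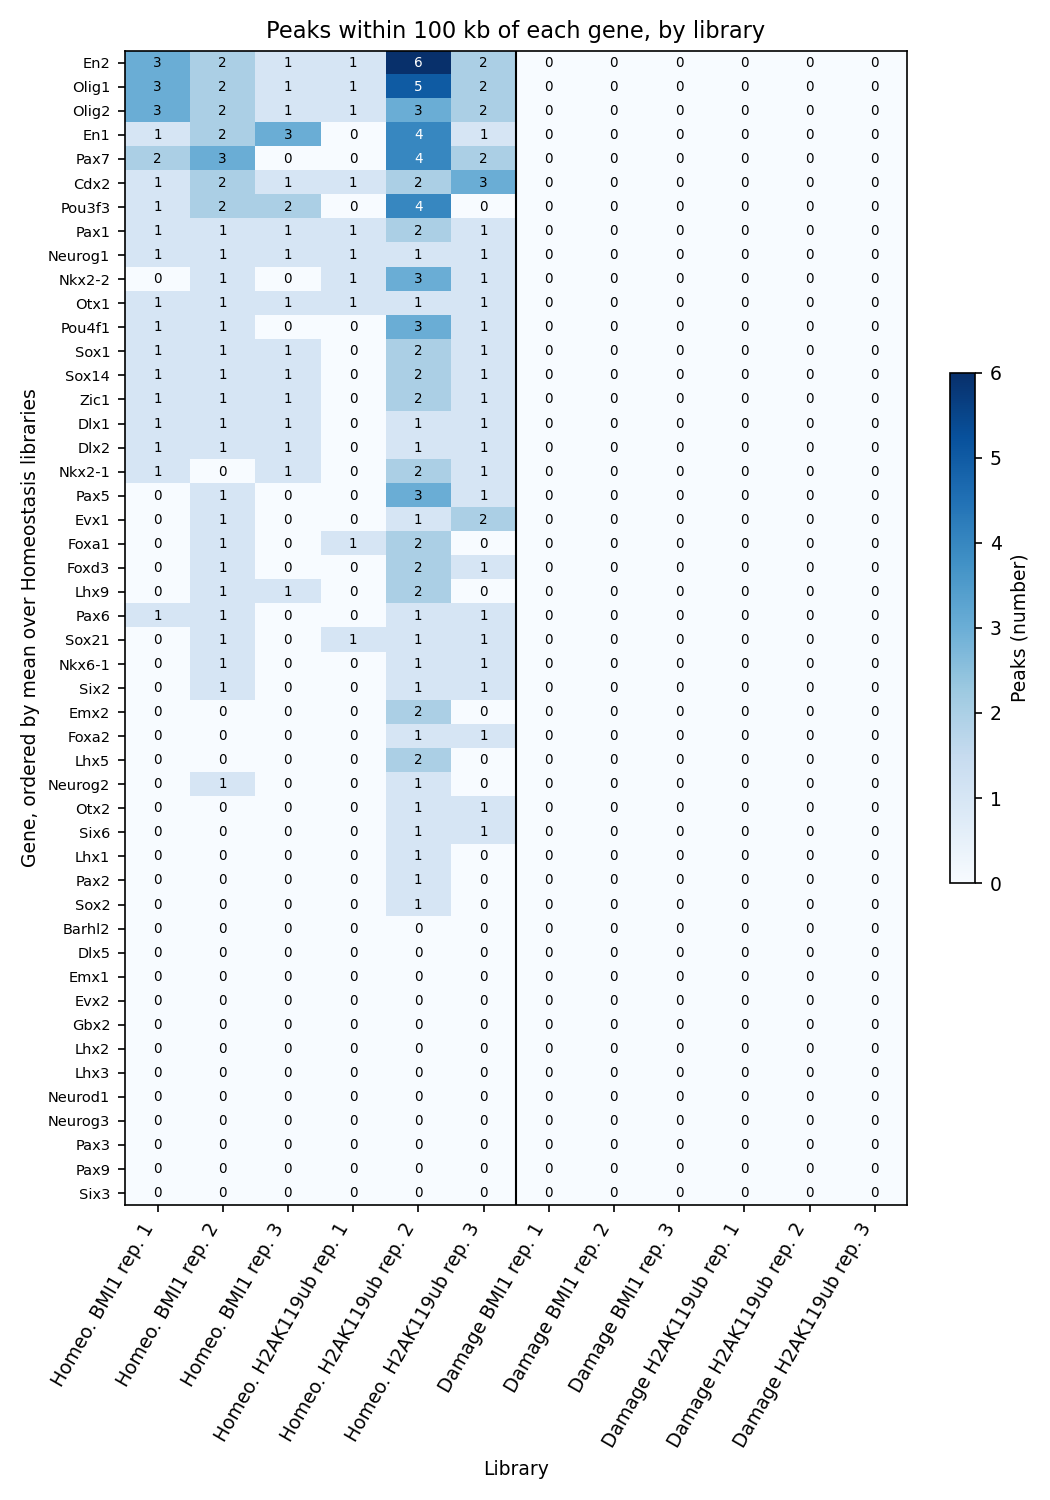
Number of peaks within 100 kb of each of the 48 genes (rows, ordered by the mean over Homeostasis libraries) in the 12 libraries (columns), with colour and digits giving the number. Values reach 6 for En2 in Homeostasis H2AK119ub replicate 2, 12 genes have 0 in all libraries, and the 6 Damage columns are 0 throughout.

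The share of each list that fell near the genes was steady. Windows of 100 kb around the 48 genes joined into 43 stretches of 9.85 Mb in all, since Dlx1 and Dlx2, Olig1 and Olig2, and other close neighbours share sequence. They held 21, 32 and 17 BMI1 peaks in replicates 1, 2 and 3, which is 0.418% (exact 95% binomial interval 0.259 to 0.639%), 0.426% (0.292 to 0.601%) and 0.417% (0.243 to 0.668%) of the lists. They held 9, 68 and 31 H2AK119ub peaks, which is 0.450% (0.206 to 0.853%), 0.504% (0.392 to 0.639%) and 0.412% (0.280 to 0.584%). The intervals, which cover counting error only, overlap between all 6 lists. Peak density in the stretches was 1.13 to 1.40 times that in the joined windows of all protein-coding genes.

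The genes with a peak within 100 kb in all 6 Homeostasis lists were Cdx2, En2, Neurog1, Olig1, Olig2, Otx1 and Pax1, 7 of 48 (14.6%) against 12.2% of all genes. The remaining genes with a peak had it in 1 to 5 Homeostasis lists, and 12 had none in any list (25.0%, against 31% of all). Those 12 were Barhl2, Dlx5, Emx1, Evx2, Gbx2, Lhx2, Lhx3, Neurod1, Neurog3, Pax3, Pax9 and Six3. Their nearest Homeostasis peak lay 108 kb (Barhl2) to 338 kb (Gbx2) away.

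En2 had the highest mean over the Homeostasis lists, with 3, 2 and 1 BMI1 peaks in replicates 1, 2 and 3 and 1, 6 and 2 H2AK119ub peaks (2.00 ± 1.00 and 3.00 ± 2.65, SD, n = 3 each). Besides the close site, a group of 3 adjoining sites 46.4 to 47.2 kb away spanned 892 bases (28118382 to 28119273) and held a peak of every Homeostasis list. Olig1 followed with 3, 2 and 1 BMI1 peaks and 1, 5 and 2 H2AK119ub peaks (2.00 ± 1.00 and 2.67 ± 2.08). Olig2, the neighbouring gene that specifies motor neurons and oligodendrocytes, had the same numbers but for 3 peaks in H2AK119ub replicate 2. The shared sites lay 36.5, 68.6 to 68.8 and 84.3 kb past the end of Olig2.

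Single sites accounted for the constancy at the other genes found in all 6 lists. Neurog1, a proneural gene of sensory neurons, had exactly 1 peak in each Homeostasis list, all at a site 19.3 kb from its lower end (chromosome 13, 56231018 to 56231213), in the long noncoding RNA gene 4930550C17Rik. Otx1, a homeobox gene of cortex and sense organs, likewise had 1 peak in each, at a site 56.1 kb from its lower end (chromosome 11, 21938511 to 21938638). Pax1, a paired box gene of the vertebral column and thymus, had 1, 1 and 1 BMI1 peaks and 1, 2 and 1 H2AK119ub peaks, with a site of all 6 lists 62.1 kb upstream of its start in Nkx2-2os (chromosome 2, 147302838 to 147302951). Cdx2, the caudal homeobox gene of intestine and trophoblast, had 1, 2 and 1 BMI1 peaks and 1, 2 and 3 H2AK119ub peaks. Its site of all 6 lists lay 77.3 kb downstream of the start in the noncoding gene Plut (chromosome 5, 147229845 to 147229960).

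En1 and Pax7 had means over the Homeostasis lists as high as 1.83 peaks without being in every list. En1, the engrailed gene of midbrain and limb ectoderm, had 1, 2 and 3 BMI1 peaks and 0, 4 and 1 H2AK119ub peaks. Pax7 had 2, 3 and 0 BMI1 peaks and 0, 4 and 2 H2AK119ub peaks. Zic1 had 1 BMI1 peak in each list and 0, 2 and 1 H2AK119ub peaks, Pou3f3 had 1, 2 and 2 BMI1 peaks and 0, 4 and 0 H2AK119ub peaks, and Pax5 had 0, 1 and 0 and then 0, 3 and 1. In these 5 genes H2AK119ub replicate 1 had no peak and replicate 2 had more peaks than the other H2AK119ub lists.

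By family, all 4 Sox genes had a peak within 100 kb in some Homeostasis list, as did all 3 Nkx and all 3 forkhead genes. So did 68.8% of all protein-coding genes, and nothing particular to these families is read from that count. Sox1 and Sox14, both neural, each had 1 BMI1 peak per list and 0, 2 and 1 H2AK119ub peaks. For Sox14 a site 59.7 kb away was in all BMI1 lists and in H2AK119ub replicates 2 and 3. Sox21, a neural progenitor gene, had 0, 1 and 0 BMI1 peaks and 1 H2AK119ub peak per list. Sox2, the pluripotency and neural stem cell factor, had a single peak, in H2AK119ub replicate 2.

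The forkhead genes, pioneer factors of endoderm (Foxa1, Foxa2) and neural crest (Foxd3), were counted in 2 or more libraries for H2AK119ub and not for BMI1. Of all genes 42% and 32.7% were so counted for H2AK119ub and BMI1. Foxa1 had 0, 1 and 0 BMI1 peaks and 1, 2 and 0 H2AK119ub peaks, and Foxd3 had 0, 1 and 0 and then 0, 2 and 1. Foxa2 had no BMI1 peak and 0, 1 and 1 H2AK119ub peaks, which lay on opposite sides of the gene. The BMI1 peaks of this family were thus all in replicate 2, the longest BMI1 list.

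Among the Nkx genes, Nkx2-1, a thyroid, lung and forebrain factor, had 1, 0 and 1 BMI1 peaks and 0, 2 and 1 H2AK119ub peaks. Nkx2-2, of ventral neural tube and endocrine pancreas, had 0, 1 and 0 BMI1 peaks and 1, 3 and 1 H2AK119ub peaks, with a site of 4 lists 24.5 kb upstream of its start. Nkx6-1, of beta cells and motor neuron progenitors, had 1 site, 50.1 kb upstream of its start in the noncoding gene 9430085M18Rik, in BMI1 replicate 2 and H2AK119ub replicates 2 and 3. All 3 were counted for H2AK119ub (42% of all genes) and Nkx2-1 also for BMI1 (32.7% of all).

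Of 7 Pax genes 5 had a peak, with none at Pax3 and Pax9. Pax2, a kidney and midbrain gene, had a single peak, in H2AK119ub replicate 2. Pax6, the eye master regulator, had a site 6.79 kb upstream of its start in BMI1 replicates 1 and 2 and H2AK119ub replicates 2 and 3. Dlx1 and Dlx2, which pattern interneurons and branchial arches, shared 1 site found in all BMI1 lists and in H2AK119ub replicates 2 and 3 (chromosome 2, 71583595 to 71583721), and Dlx5 had none.

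Of 5 LIM homeobox genes, Lhx1 and Lhx5 had peaks in H2AK119ub replicate 2 only, and Lhx9 had 0, 1 and 1 BMI1 peaks and 0, 2 and 0 H2AK119ub peaks at 4 sites of 1 list each. Lhx2 and Lhx3 had none. Of the sine oculis genes, Six2, of nephron progenitors, had 0, 1 and 0 BMI1 peaks and 0, 1 and 1 H2AK119ub peaks at 3 separate sites 56.0 to 58.1 kb away. Six6, of eye and pituitary, had 1 site 33.7 kb downstream of its start in H2AK119ub replicates 2 and 3, and Six3 had none. By overlap the peaks of these genes recurred little: of their 11 sites, that of Six6 alone was in 2 lists. Joining sites less than 1 kb apart also gave a group of 2 lists at Lhx9 (138916764 to 138916972) and another at Six2 (85744270 to 85744561). Both groups held a peak of BMI1 replicate 2 and of H2AK119ub replicate 2.

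Among the remaining genes, Pou4f1, a sensory neuron factor, had 1, 1 and 0 BMI1 peaks and 0, 3 and 1 H2AK119ub peaks. Otx2, of forebrain and retina, had 0, 1 and 1 H2AK119ub peaks and no BMI1 peak, and Emx2, of cortex and urogenital tract, had 2 peaks, both in H2AK119ub replicate 2. Evx1, which adjoins the Hoxa cluster, had 0, 1 and 0 BMI1 peaks and 0, 1 and 2 H2AK119ub peaks, of which 1 lay inside Hoxa10. En1 had sites 50.8 and 64.3 kb downstream of its start, both in the noncoding gene 2610027F03Rik, in 3 and 4 lists. Neurog2, a proneural gene like Neurog1, had 1 site 98.4 kb away in BMI1 replicate 2 and H2AK119ub replicate 2.

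The sites themselves were compared with Homeostasis sites at large, a site being overlapping peaks joined over the 6 lists. Within 100 kb of the genes there were 88 sites, of which 39 (44.3%) were in 2 or more lists and 4 (4.55%) in all 6, against 50.0% and 7.21% of the 17229 sites on the assembled chromosomes. Of the 39 recurrent sites 32 (82.1%) held peaks of both antibodies, against 86.3% at large. Sites of a single list came from H2AK119ub replicate 2 in 30 of 49 cases (61.2%), against 62.4% at large. On these measures the sites near the genes were much like all sites. Several lists had peaks side by side without overlap, and joining sites less than 1 kb apart left 73 groups of sites, 5 of them with peaks of all 6 lists and 10 with 5 or more. Such groups were not counted among sites at large, so these numbers have no background.

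**Figure D3:**
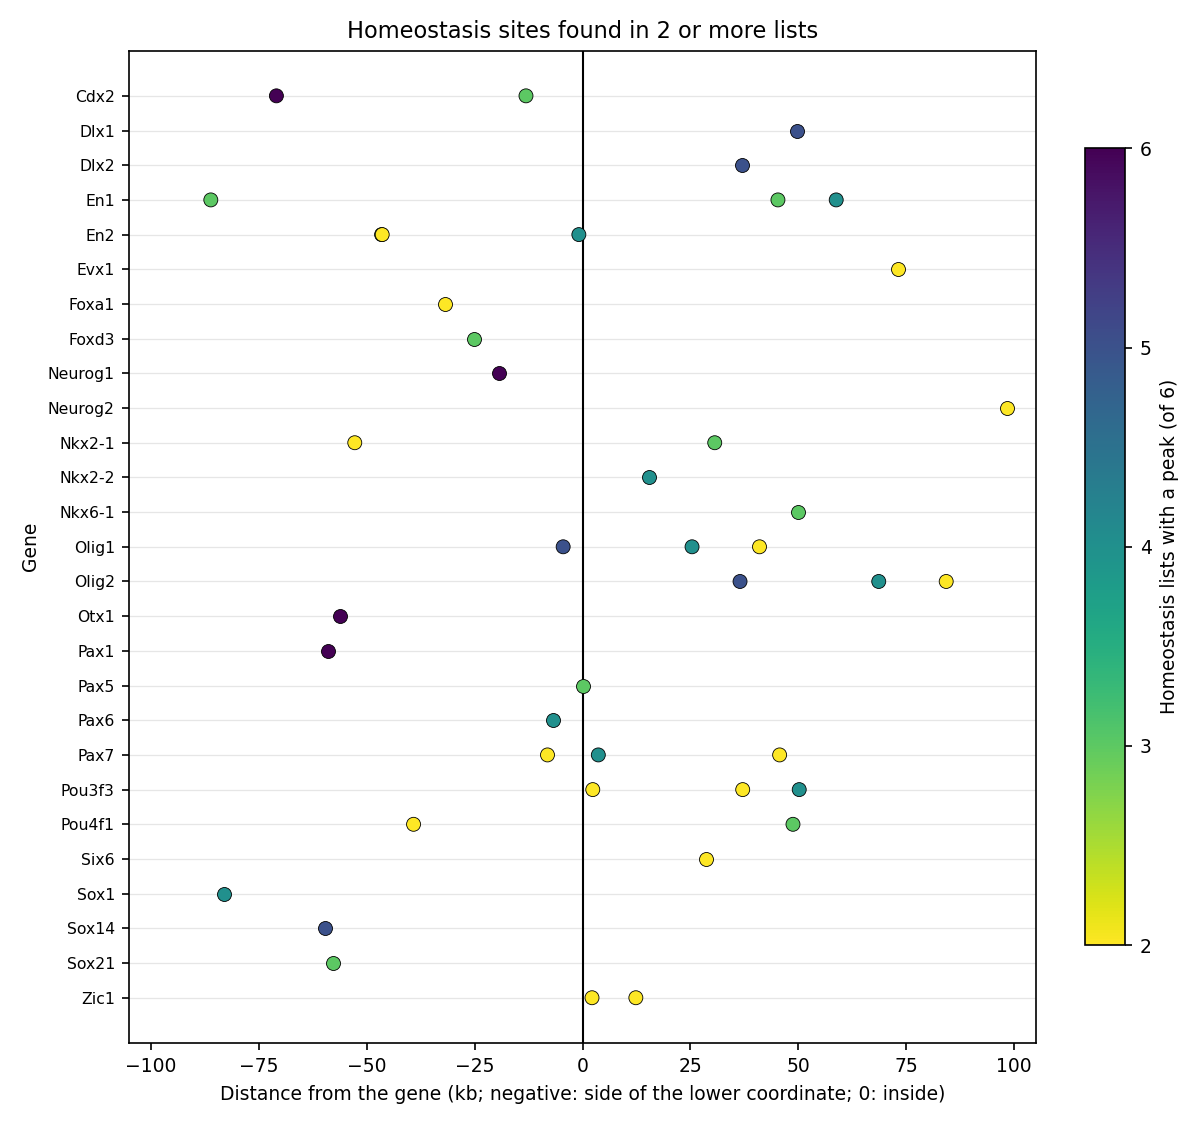
Position of each Homeostasis site found in 2 or more lists, as distance in kb from the gene (rows; negative on the side of the lower coordinate, 0 inside the gene), coloured by the number of Homeostasis lists with a peak. Of the genes shown, only Pax5 has a site inside it, and the sites of all 6 lists at Cdx2, Neurog1, Otx1 and Pax1 lie 19.3 to 70.9 kb away.

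Most of the sites lay outside protein-coding genes. Of the 88 sites 11 (12.5%) lay in a protein-coding gene, 32 (36.4%) only in another annotated gene and 45 (51.1%) in none. For the 12159 sites within 100 kb of any protein-coding gene the shares were 48.4%, 9.25% and 42.3%. The sequence itself differs in the same way: protein-coding genes cover 28.5% of the windows of the 48 genes and 54.1% of the windows of all genes, and other genes alone cover 22.0% and 6.60%. These other genes include long noncoding RNAs named after the transcription factor beside them. A Pax6 site lay in Pax6os1, 3 sites of 4, 1 and 1 lists within 100 kb of Nkx2-2 lay in Nkx2-2os, and single-list sites lay in Emx2os, Otx2os1 and Sox2ot.

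The genes lie in gene-poor sequence. From each gene to the nearest protein-coding gene on both sides, the gene-free span had a median of 229 kb, against 37.7 kb for all protein-coding genes. With every annotated gene as a neighbour the medians were 28.7 and 18.8 kb. The longest spans were those of Pou3f3 (1990 kb), Sox2 (1670 kb), Zic1 (1087 kb), Foxa2 (1016 kb) and Pax1 (834 kb). The shortest were those of Dlx1 (12.3 kb), Cdx2 (32.8 kb), Gbx2 (33.6 kb), Neurog2 (45.8 kb) and Emx1 (58.8 kb). With all genes divided into 3 equal classes by span, 42 of the 48 fell in the class with spans over 72.0 kb.

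Within that class BMI1 marked 38.0% of all genes within 100 kb and 17 of the 42, and H2AK119ub marked 48.2% of all and 26 of the 42. The span did not order the genes by peaks: Spearman's rho between span and mean peaks within 100 kb per Homeostasis list was 0.21 over the 48 genes and 0.15 over 21845 genes, a description across genes that share libraries. Sox2, with a span of 1670 kb, had a mean of 0.167 peaks and Cdx2, with 32.8 kb, a mean of 1.67.

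**Figure D4:**
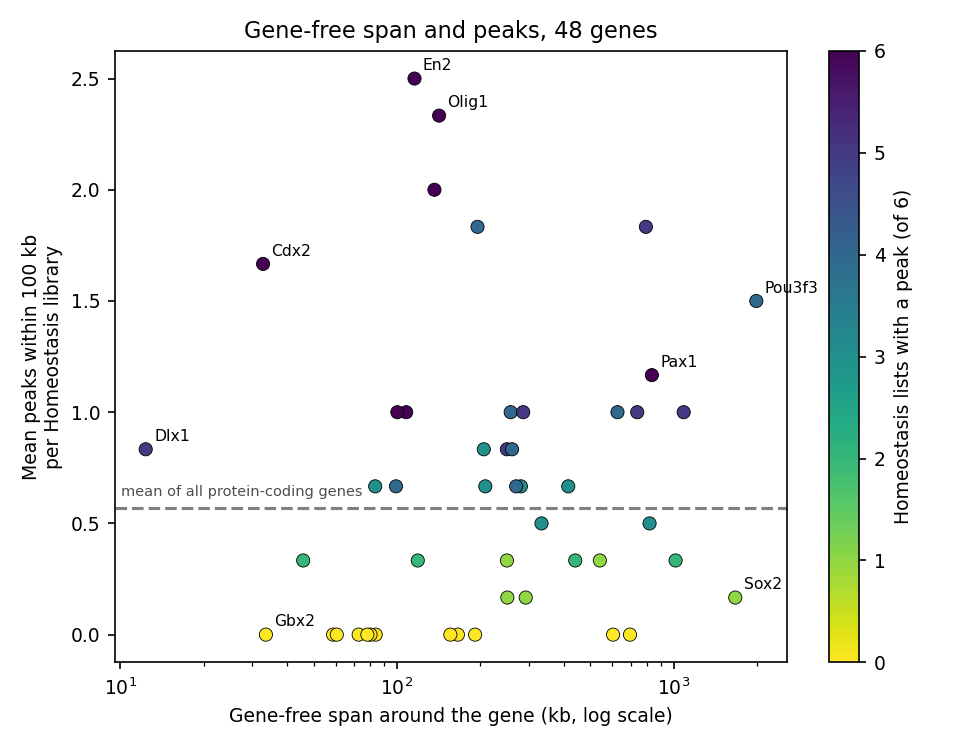
Mean number of peaks within 100 kb per Homeostasis library (vertical axis) against the gene-free span in kb (horizontal axis, log scale) for the 48 genes, coloured by the number of Homeostasis lists with a peak. The dashed line is the mean of all protein-coding genes, 0.571, and the genes lie on both sides of it at short and at long spans.

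Flanks were summed gene by gene, so a gap between neighbours of a set, with its peaks, counted for each of them. That holds for most gaps at large but for few gaps of the 48 genes. Per length, the gene-free flanks of the 48 genes held 2.73, 4.21 and 2.10 BMI1 peaks per Mb in replicates 1, 2 and 3, against 2.03, 2.99 and 1.62 in the flanks of all protein-coding genes. For H2AK119ub the values were 1.19, 8.24 and 3.87 peaks per Mb against 0.814, 5.35 and 3.00. All 6 lists were denser in the flanks of the 48 genes (means 3.01 ± 1.08 against 2.21 ± 0.700 for BMI1 and 4.44 ± 3.56 against 3.06 ± 2.27 for H2AK119ub, SD, n = 3 each). The ratio within a list was 1.29 to 1.54, while the densities themselves ranged with the length of the lists. With every annotated gene as a neighbour the BMI1 mean was 1.95 per Mb against 2.07 for all genes, so that this difference turned, while the H2AK119ub mean was 3.73 against 2.91 per Mb and did not turn. The gene bodies, 0.841 Mb in all, held 0, 1 and 0 BMI1 peaks and 0, 1 and 1 H2AK119ub peaks, all at the Pax5 site.

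The distance from a gene to the nearest peak shows the same pattern without a fixed window. The median over the 48 genes was 188, 70.4 and 149 kb in BMI1 replicates 1, 2 and 3, against 200, 129 and 234 kb over all protein-coding genes. For H2AK119ub it was 428, 47.9 and 71.8 kb against 509, 64.7 and 127 kb. The median was shorter for the 48 genes in all 6 lists, and it varied more between libraries than between the gene sets. For regions found in 2 or more BMI1 libraries it was 226 kb against 224 kb, so the difference was then gone. For regions found in 2 or more H2AK119ub libraries it was 84.6 kb against 156.8 kb, still shorter for the 48 genes.

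**Figure D5:**
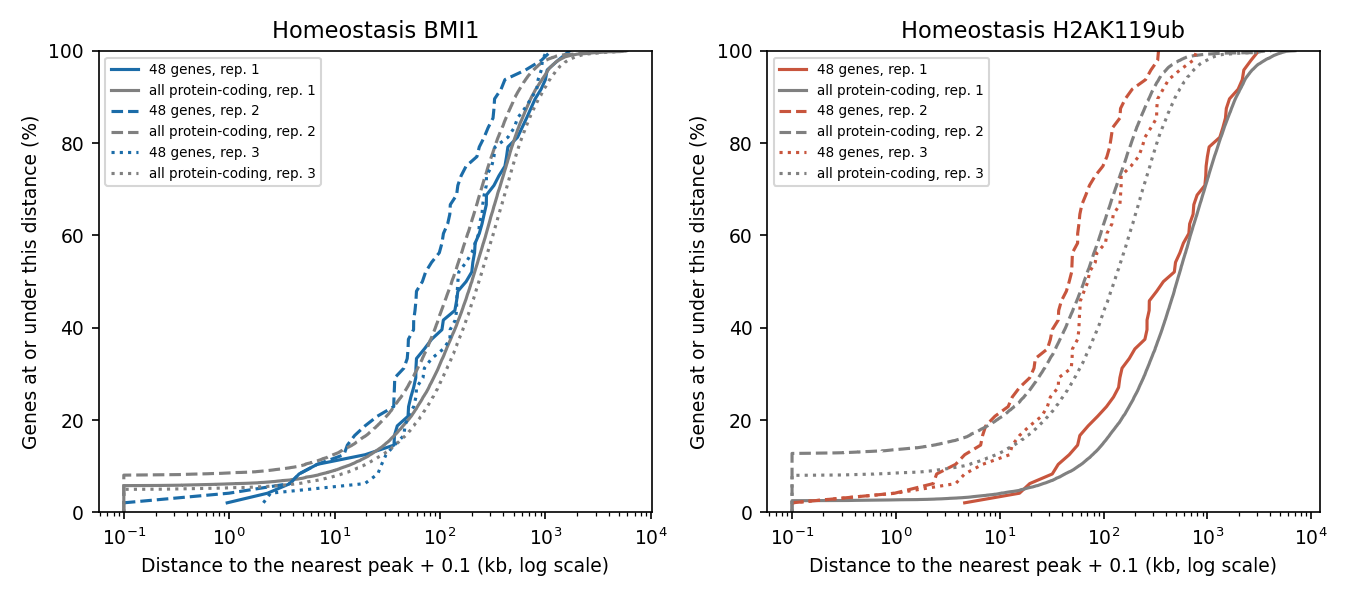
Cumulative percent of genes (vertical axis) by distance to the nearest peak plus 0.1 kb (horizontal axis, log scale) for Homeostasis BMI1 (left) and H2AK119ub (right). Coloured lines are the 48 genes and grey lines all protein-coding genes, with 1 line style per replicate. Under about 1 kb the grey lines are higher, since more genes at large have a peak inside, and the coloured medians lie to the left of the grey ones in all 6 lists.

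The comparison of treatments asked whether peaks near these genes remained after paraquat. None of the 217 peaks of the 6 Damage lists lay within 100 kb of any of the 48 genes, against 178 of 39615 Homeostasis peaks. Every one of the 36 genes with a Homeostasis peak thus had 0 in all Damage lists. The Damage lists were shorter throughout: 0 of 217 peaks allows a share of up to 1.38% by the limit that a count of 0 sets, above the 0.449% of the Homeostasis lists, and that share would have given 0.975 peaks. Over single Damage lists the limit was 4.41 to 15.8%. Across all genes, a Damage peak within 100 kb in 2 or more libraries was present for 0.0274% with BMI1 and 0.0228% with H2AK119ub.

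Peak numbers within 100 kb were tested gene by gene over all 21887 protein-coding genes, with treatment permuted within antibody. The 7 genes with a peak in every Homeostasis list (Cdx2, En2, Neurog1, Olig1, Olig2, Otx1 and Pax1) had fewer peaks in Damage lists (two-sided exact permutation test, p = 0.005, Benjamini-Hochberg adjusted p = 0.0418). The 400 arrangements allow no smaller p. Any gene with a peak in all 6 Homeostasis lists and none in Damage lists reaches it. Numbers were not scaled for list length, so the test cannot tell a loss at these genes from the shorter Damage lists. These 7 are 14.6% of the 48, near the 12% of all genes that passed in the same direction, and no gene passed in the other. On the peak scale the mean over antibodies in Homeostasis lists was 2.50 for En2, 2.33 for Olig1, 2.00 for Olig2 and 1.67 for Cdx2. It was 1.17 for Pax1 and 1.00 for Neurog1 and Otx1, and in Damage lists it was 0 for all 7.

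Dlx1, Dlx2, En1, Sox1, Sox14 and Zic1, each with peaks in 5 of 6 Homeostasis lists, had an unadjusted p of 0.02 and did not pass (exact permutation, adjusted p = 0.0957). The calls rest on the number of genes that reach the smallest p. No protein-coding gene, and so none of the 48, passed when any 1 of the 6 Damage libraries was left out (smallest adjusted p 0.0539 to 0.0752, exact permutation). Without Homeostasis H2AK119ub replicate 1, 13 of the 48 passed, against 19.3% of all genes. Nor did any gene pass with a window of 50 kb (smallest adjusted p = 0.0713, exact permutation) or with the replicate number as a block (0.259). With 200 kb, 15 of the 48 passed, against 21.4% of all genes. For BMI1 or H2AK119ub by itself the smallest exact permutation p is 0.1, so neither could give a call.

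Between the antibodies at homeostasis, none of the 48 genes had all H2AK119ub lists above all BMI1 lists in peaks within 100 kb, or the reverse (0.064% and 0.0274% of all genes did). With 3 libraries each the exact permutation test cannot go below p = 0.1, so no gene could be called. The wide range of the H2AK119ub lists, 2000 to 13487 peaks, runs through these values: for Olig1 its libraries had 1, 5 and 2 peaks and those of BMI1 3, 2 and 1.

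Related genes outside the list were counted in the same way. Of 37 further transcription factors of the same families, 1 had a peak within 5 kb in 2 or more libraries of BMI1 and 1 of H2AK119ub (2.70% each, against 7.34% and 9.63% of all genes). Within 100 kb 11 (29.7%) and 16 (43.2%) did, against 32.7% and 42% of all, and 5 (13.5%, against 12% of all) passed the test of treatment. Of the 39 HOX genes, the classical Polycomb targets, 1 and 1 had a peak within 5 kb by the same count (2.56% each). Within 100 kb 9 and 9 did (23.1% each, below the share of all genes), while 5 (12.8%) passed. Counting 1 or more of 3 libraries, 14 of the 39 had a BMI1 peak within 100 kb, against 50.2% of all. For H2AK119ub 30 of the 39 did, against 65.1% of all. No peak in any list was found for 9 (23.1%), against 31% of all. The differences between these lists and the 48 genes (39.6% and 58.3% within 100 kb) were not tested. HOX genes lie in dense clusters, with a median gene-free span of 7.08 kb, and neighbours in a cluster share their windows.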

How the data were processed

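Peak positions were taken from the deposited lists, 1 per ChIP library and not pooled. Bowtie2, HOMER 4.8 and the build GRCm38 are named per the submitters' processing notes. No peak threshold or use of Input is given in the sources used here. The score column that the authors deposited is 1 for every peak and ranks nothing. The 2 Input libraries were not analysed here. Of 39832 peaks, 143 on unplaced or patch sequences were left out of gene counts.

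Windows of 5 and 100 kb were laid around RefSeq gene boundaries, and a peak counted when it overlapped by 1 bp or more. A group counted as having a peak at a gene when at least 2 of its 3 libraries did. Treatment was tested per gene by an exact permutation test within antibody, adjusted (Benjamini-Hochberg, threshold 0.05) over all 21887 protein-coding genes. The genes and lists were chosen with earlier results of these data known, so lists got no p. All 48 genes are accounted for. Values per library were given by rule for genes with a peak within 5 kb and for up to 10 with a peak within 100 kb in all Homeostasis lists. The further genes given by family, the joined groups of sites and the classes by length and span were chosen after the data were seen. Alternatives changed the window, the library rule, merging, the annotation, the scale, the replicate block and single libraries. Procedures were tested on simulated data. There the Damage lists were as long as the Homeostasis lists, so the short Damage lists here were not covered. The changed genes had a mean of 3 or more peaks within 100 kb, more than any of the 48. Python 3.11.15, numpy 2.4.6, pandas 2.3.3 and scipy 1.17.1 were used.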

Additional observations from a re-analysis of the deposited data

How the results depend on the processing

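Damage counts were 0 under every window, library rule and left-out library tried. Within 5 kb, BMI1 (4 genes) gave 1 with a window of 2 kb and 0 with all 3 libraries required, and H2AK119ub (4 genes) gave 2 and 1. The shares of all genes fell too, to 6.38% and 4.45% for BMI1 and to 8.33% and 2.92% for H2AK119ub. Leaving out single libraries gave 0 to 3 genes for BMI1 (4.67 to 5.90% of all genes) and 1 to 4 for H2AK119ub (3.00 to 9.46% of all). Within 100 kb, BMI1 (19 genes) gave 12 with a window of 50 kb and 15 to 17 without single libraries. Of all genes it was 19.9% and 21.28 to 26.65%. H2AK119ub (28 genes) gave 17 with 50 kb, 9 with all 3 libraries required and 9 to 27 without single libraries. Of all genes it was 26.8%, 13.9% and 14.1 to 41.4%. The test of treatment (7 genes) gave 0 with 50 kb (7 at an unadjusted exact permutation p under 0.05) and 0 for either antibody alone. With 200 kb it gave 15, against 21.4% of all genes. It gave 0 to 13 without single libraries, against 0 to 19.3% of all genes. It gave the same 7 genes with presence or absence, a log10 scale, merged peaks or all annotated genes. With the replicate block, 0 genes passed (7 unadjusted), since its 64 arrangements allow no p under 0.0312. The share of all genes at an unadjusted p under 0.05 was not counted for the 50 kb window or the replicate block. The numbers are not known to pair libraries: same-numbered BMI1 and H2AK119ub Homeostasis libraries correlated at -0.0376, 0.559 and -0.371 over genes in their deviations from the group mean, and treatments at -0.0416 to 0.0469. The nearest BMI1 peak, at a mean median of 136 kb (110 to 169 kb without single libraries), was 226 kb away for recurrent regions. For H2AK119ub the mean median was 183 kb (59.8 to 250.1 kb without single libraries) and 84.6 kb for recurrent regions. The gene-free span was 28.7 kb with all annotated genes as neighbours. Flank densities without single libraries were 2.42 to 3.47 per Mb for BMI1 and 2.53 to 6.06 per Mb for H2AK119ub. Genes with non-overlapping antibodies numbered 0 with 50 or 200 kb and 0 to 3 without single libraries, alternatives chosen after seeing the data. The 3 came without H2AK119ub replicate 1, where 7.99% of all genes were so counted. Without BMI1 replicate 2 it was 2 genes, against 0.498% of all. Without H2AK119ub replicate 2 it was 1, against 0.603%. Depth is unknown, so list length could not be scaled for it.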

Other observations

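Of 19 genes that encode Polycomb subunits, BMI1 had a peak within 5 kb of 1 (5.26%, against 7.34% of all protein-coding genes) and H2AK119ub of 2 (10.5%, against 9.63%), in 2 or more libraries. Within 100 kb it was 3 (15.8%, against 32.7%) and 8 (42.1%, against 42%). None of the 19 passed the exact permutation test of treatment, against 12% of all genes. In that test 2 had an unadjusted p under 0.05, against 4596 of all 21887 genes. Of marker genes, against the same 32.7% and 42% of all genes within 100 kb, BMI1 and H2AK119ub marked 2 and 2 of 5 stromal genes, 1 and 2 of 3 leukocyte genes, 1 and 2 of 3 endothelial genes, and 1 and 1 of 3 cardiomyocyte genes. Lists this short are given as counts only. None of these lists had a Damage peak within 100 kb.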
